A study of Homo sapiens with 9 samples.

Results

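The 9 core genes of the NRF2 antioxidant response were followed in SNU5 cells treated with gold nanoparticles that carried ramucirumab or with ramucirumab alone. They are NFE2L2, which encodes NRF2 itself, KEAP1, which encodes its inhibitor, and the target genes NQO1, HMOX1, GCLC, GCLM, TXNRD1, SRXN1 and ME1. The genes were listed by name as core members of the pathway, with no threshold on their values, and aldo-keto reductases were left out. All 9 symbols matched 1 Ensembl gene ID each among the 60880 IDs in the count data, and all 9 had enough counts to be tested in every comparison.

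NRF2 is a transcription factor that is held low in unstressed cells, because KEAP1 hands it to a CUL3 ubiquitin ligase for degradation. Oxidants and electrophiles modify cysteines of KEAP1, after which NRF2 accumulates, pairs with a small MAF protein and binds the antioxidant response element in front of its target genes. The targets make glutathione, reduce thioredoxin and quinones, break down heme and supply NADPH. NRF2 is controlled largely through the stability of the protein, which counts of RNA do not measure.

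SNU5 is an established line of human gastric carcinoma cells. Ramucirumab, the antibody in all groups, binds VEGFR2. The NR group received AuNR-Peg-Ab, gold nanorods linked through polyethylene glycol to the antibody. The SP group received AuSP-Peg-Ab, gold nanospheres with the same linker and antibody, and the Ab group received ramucirumab without gold. All 9 libraries, 3 per group, came from cells treated for 24 h at 8 μg/mL of antibody. Libraries of untreated cells and of cells given gold without antibody were not analysed here, so every difference is relative to cells that also received the antibody. NR and SP differ from Ab by both the gold and the linker, whose parts cannot be told apart. The study also reports more antibody signal in cells given the particles than in those given free antibody at an equal dose. That part cannot be told apart either. Compared samples were handled alike according to a general statement of the study, which does not say whether the groups were cultured or sequenced together. A batch that follows the groups could not be told apart from the treatment. The study calls its RNA-seq replicates biological and says of its in vitro experiments in general that they were repeated independently, but not how the 3 libraries of a group were obtained. The p-values measure the spread between these libraries.

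Library totals ranged from 13863155 to 25735410 counts in the NR group. Those of the SP group were 20601906 to 22914759 counts and those of the Ab group 19566064 to 26318227. Levels are given in CPM, counts scaled by library size, with TMM normalization over the 9 libraries. A count of 3, taken as the lowest level that could be told from 0, was 0.114 to 0.216 CPM depending on the library. Of the 9 genes, 8 lay above 15 CPM in every library, and SRXN1 rested on 18 to 45 counts.

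The label of the cells was checked on 10 epithelial markers of gastric carcinoma. KRT8 was the most abundant at 642 to 2020 CPM, while KRT19, CDX1 and TFF3 had at most 3 counts in every library. Of 7 epithelial markers tested, 5 rose and none fell in both comparisons, while CLDN4 and CLDN7 did not pass an adjusted p of 0.05 in edgeR. At that threshold 36.4% of all genes tested rose and 36.4% fell in NR against Ab, and 36.4% and 36.6% in SP against Ab. The summed level of the list was 2376 to 2533 CPM in the NR and SP libraries and 962 to 1035 CPM in the Ab libraries. CDH1, the epithelial cadherin, was at 5 to 9 counts in the Ab libraries and at 79 to 159 counts in the others. Markers of other cells moved with the groups too. The summed level of 10 leukocyte markers was 5.57 to 8.23 CPM in NR and SP and 1.36 to 2.24 CPM in Ab, with CSF1R highest and with PTPRC, CD68, LYZ, CD3E, MS4A1 and NKG7 at or under 3 counts everywhere. CSF1R rose in both comparisons, whereas CD14, tested in NR alone, fell (-1.52, from 8 to 21 counts in Ab and 2 to 7 in NR), though NR and Ab overlapped in CPM. Of 10 fibroblast and endothelial markers, 9 were matched. Their summed level was 126 to 142 CPM in NR and SP and 23.1 to 49.7 CPM in Ab, with COL1A1, at 14.2 to 41.5 CPM, the most abundant by the mean of all 9 libraries, though LUM was above it in NR libraries 1 and 2 and SP library 1, and TEK at or under 3 counts. In both comparisons 5 of the 8 tested rose, PDGFRB, DCN, LUM, VWF and CDH5, and none fell, beside the same 36.4% and 36.4% of all genes that rose. LUM, a matrix proteoglycan of fibroblasts, was at 36.8 to 38.7 CPM in NR and SP and at 0.920 to 0.968 CPM in Ab. The 3 collagen genes did not pass, with COL1A1 at log2 fold changes of 0.63 in NR and 0.72 in SP, COL1A2 at -3.56 and -1.81 and COL3A1 at 0.033 and 0.27. COL1A2 was at 10.3, 10.7 and 1.60 CPM in Ab and at 0 to 2.24 CPM in the others. In bulk libraries a larger share of a cell type and more RNA per cell cannot be told apart, and the part of these shifts in the results on the NRF2 genes was not tested. The share of counts on mitochondrial genes, 4.36% to 4.66% in NR and SP and 3.41% to 3.71% in Ab, also followed the groups, and leaving those genes out changed no call on a core gene.

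The promoters of the core genes were searched for the core letters of the antioxidant response element, to show where the sequence bound by NRF2 with its MAF partner could lie. The windows ran from 250 bases before to 50 bases after each RefSeq transcription start (GRCh38.p14), and the letters were TGACNNNGC or, on the other strand, GCNNNGTCA. They were found in 4 of the 8 core genes that had a window, KEAP1, GCLM, TXNRD1 and ME1, and in 16.1% of all 27305 gene symbols with a window. Matches before the start are printed with up to 20 bases on either side but none past the start or the match, on the strand of the gene from 5′ to 3′, with the matched letters in capitals. KEAP1 had a pair of matches in the second of its windows, beginning 54 and 31 bases before the start (chr19:10502774-10502845, minus strand). GCLM had a match 34 bases before the start (chr1:93909436-93909484, minus strand). TXNRD1 had matches 99 and 8 bases before the first of its starts (chr12:104215660-104215708 and chr12:104215751-104215779, plus strand) and 102 bases before the second (chr12:104286910-104286958). ME1 had a match 137 bases before the start (chr6:83431160-83431208, minus strand) and another 12 bases after it, which is not printed.
KEAP1: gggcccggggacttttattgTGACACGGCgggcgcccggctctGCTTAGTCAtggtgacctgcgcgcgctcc
GCLM: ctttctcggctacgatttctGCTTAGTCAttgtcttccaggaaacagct
TXNRD1, first start, distal: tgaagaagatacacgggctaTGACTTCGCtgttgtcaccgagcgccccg
TXNRD1, first start, proximal: cctccgccaggcgtccttcgGCTCCGTCA
TXNRD1, second start: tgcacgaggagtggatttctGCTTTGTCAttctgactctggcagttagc
ME1: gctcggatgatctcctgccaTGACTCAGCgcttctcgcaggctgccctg
GCLM and the second match of KEAP1 held the same 9 letters. The windows of NFE2L2, NQO1, GCLC and SRXN1 did not hold these letters, which says nothing of elements farther away. HMOX1 is named without a window. A match is a run of letters and not a measured binding site.

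Against free antibody, most core genes were higher with either particle, and the change was led by NQO1 at about 3-fold. In NR, 6 of the 9 genes rose and 2 fell at an adjusted p of at most 0.05 in edgeR's quasi-likelihood test. For comparison, 36.4% of the 15009 genes tested rose and 36.4% fell. In SP, 5 rose and 1 fell, beside 36.4% and 36.6% of 15068 genes tested. A gene was called when it also changed at least 2-fold. In both comparisons NQO1 was the single core gene called, among 12.4% of all genes called higher and 10.3% called lower in NR, and 12.6% and 10.6% in SP. The median log2 fold change of the 9 genes was 0.69 in NR and 0.29 in SP, where that of all genes tested was -0.0055 and -0.0067. A core gene that rose was thus one of a large number of genes that did. Both comparisons used the same 3 Ab libraries, so they are not independent of each other.

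**Figure D1:**
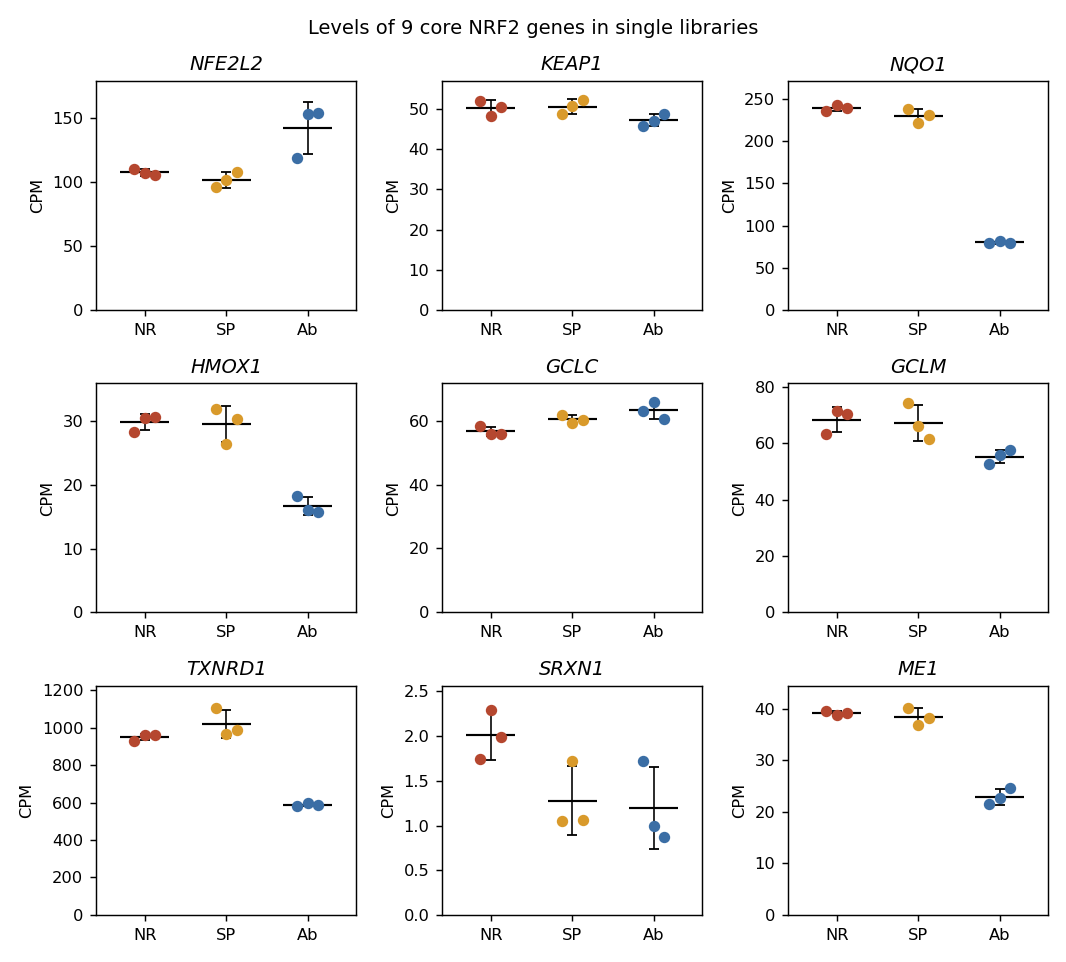
CPM (TMM-scaled, linear axes from 0) of each core gene in the 3 NR, 3 SP and 3 Ab libraries. Points are libraries, horizontal bars are means and whiskers are SD (n = 3). NQO1 was at 222 to 243 CPM in NR and SP and at 79.1 to 81.6 CPM in Ab, NFE2L2 was highest in Ab, and SRXN1 stayed under 2.5 CPM.

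NFE2L2 (ENSG00000116044, chr2:178083395-178257484, minus strand in GRCh37), the gene of NRF2, was lower with both particles, against the direction of most of its targets. Its level was 110.1, 107 and 105 CPM in NR libraries 1, 2 and 3, 95.5, 101 and 108 CPM in SP and 118, 153 and 154 CPM in Ab. All 6 particle libraries lay below all 3 Ab libraries, but Ab library 1 lay closer to them than to the other Ab libraries. The log2 fold change was -0.40 (SE 0.10, adjusted p = 0.00914) in NR and -0.48 (SE 0.10, adjusted p = 0.00302) in SP. Without Ab library 1 it was -0.51 (adjusted p = 1.62e-11) in NR, and leaving out NR library 1 or NR library 3 took the adjusted p to 0.0641 and 0.0638. In the GENCODE annotation 38.4% of the exon bases of NFE2L2 are shared with other genes, mainly HNRNPA3 on the opposite strand, and it is not stated whether the counting used strand.

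KEAP1 (ENSG00000079999, chr19:10596801-10614234, minus strand), the adaptor that delivers NRF2 for degradation, did not pass the test in either comparison. It was at 52.1, 48.3 and 50.5 CPM in the NR libraries, 48.8, 50.7 and 52.4 CPM in SP and 45.8, 47.02 and 48.9 CPM in Ab. Ab overlapped with both other groups. The log2 fold change was 0.098 (SE 0.061, adjusted p = 0.149) in NR and 0.11 (SE 0.061, adjusted p = 0.116) in SP, with 95% intervals of -0.027 to 0.22 and -0.018 to 0.23. With upper-quartile scaling it passed in both, at 0.17 (adjusted p = 0.0143) and 0.18 (adjusted p = 0.0115). The ratio of NFE2L2 to KEAP1 counts, taken within each library, was 2.13 ± 0.066 in NR, 2.0 ± 0.050 in SP and 2.99 ± 0.36 in Ab (SD, n = 3). All Ab libraries were above all particle libraries in this ratio, from 2.58 upward against at most 2.21.

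NQO1 (ENSG00000181019, chr16:69740899-69760571, minus strand) reduces quinones by transfer of a pair of electrons from NADPH or NADH and is a widely used readout of NRF2. Its level was 236, 243 and 239 CPM in the NR libraries, 239, 222 and 231 CPM in SP and 79.5, 81.6 and 79.1 CPM in Ab. The Ab libraries were tightly grouped and far below the 6 others. NQO1 rose 3.0-fold in NR, on the log2 scale 1.58 (SE 0.046, adjusted p = 7.45e-22), and 2.89-fold in SP, on the log2 scale 1.53 (SE 0.050, adjusted p = 1.84e-20). Among its exon bases 19.4% are shared with a gene on the opposite strand.

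HMOX1 (ENSG00000100292, chr22:35776354-35790207, plus strand), the inducible heme oxygenase that opens the heme ring to biliverdin, carbon monoxide and iron, was also higher. It was at 28.4, 30.5 and 30.7 CPM in the NR libraries, 31.9, 26.5 and 30.4 CPM in SP and 18.3, 16.02 and 15.8 CPM in Ab, with no overlap between particle and antibody libraries. The log2 fold change was 0.84 (SE 0.082, adjusted p = 3.29e-10) in NR and 0.84 (SE 0.087, adjusted p = 1.61e-09) in SP, which is 1.79-fold in both and under the 2-fold minimum.

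The genes of glutamate-cysteine ligase, the enzyme that sets the rate of glutathione synthesis, did not move together. GCLM (ENSG00000023909, chr1:94350755-94375012, minus strand), the modifier subunit, was at 63.4, 71.7 and 70.4 CPM in the NR libraries, 74.2, 66.2 and 61.6 CPM in SP and 52.7, 55.8 and 57.5 CPM in Ab. The rise, in log2, was 0.30 (SE 0.061, adjusted p = 6.01e-05) in NR and 0.29 (SE 0.067, adjusted p = 0.000344) in SP. GCLC (ENSG00000001084, chr6:53362139-53481768, minus strand), the catalytic subunit, was at 58.3, 55.9 and 55.8 CPM in the NR libraries, 61.8, 59.3 and 60.04 CPM in SP and 63.1, 65.8 and 60.6 CPM in Ab. All NR libraries were below all Ab libraries, whereas SP and Ab overlapped. The log2 fold change of GCLC was -0.15 (SE 0.058, adjusted p = 0.0200) in NR and -0.058 (SE 0.060, adjusted p = 0.382) in SP. The fall in NR was small and passed the adjusted p in 9 of 14 alternative fits, failing with DESeq2 (-0.15, adjusted p = 0.0648), with upper-quartile scaling (-0.080, adjusted p = 0.219) and without Ab library 2, NR library 2 or NR library 3. The ratio of GCLC to GCLM counts was 0.831 ± 0.077 in NR, 0.901 ± 0.071 in SP and 1.14 ± 0.078 in Ab (SD, n = 3). In every Ab library GCLC had more counts than GCLM, and in every particle library it had fewer.

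TXNRD1 (ENSG00000198431, chr12:104609557-104744085, plus strand), the cytosolic thioredoxin reductase, was the most abundant of the 9 genes. Its level was 929, 959.6 and 961 CPM in the NR libraries, 1106, 965 and 988 CPM in SP and 582, 598 and 588 CPM in Ab. The Ab libraries were clearly apart from the others. The rise of TXNRD1, in log2, was 0.69 (SE 0.040, adjusted p = 3.42e-15) in NR and 0.80 (SE 0.047, adjusted p = 1.33e-14) in SP, or 1.61-fold and 1.74-fold.

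SRXN1 (ENSG00000271303, chr20:627259-633844, minus strand), sulfiredoxin, which repairs overoxidized peroxiredoxins, was near the limit of measurement. It was at 1.74, 2.29 and 1.99 CPM in the NR libraries, 1.05, 1.72 and 1.06 CPM in SP and 1.72, 0.996 and 0.872 CPM in Ab, from 45, 32 and 32 counts, 23, 40 and 22 counts, and 33, 26 and 18 counts. Every NR library was above every Ab library, though by little, and SP and Ab overlapped. The log2 fold change was 0.75 (SE 0.28, adjusted p = 0.0176) in NR and 0.13 (SE 0.32, adjusted p = 0.712) in SP. The rise in NR passed in 10 of 14 alternative fits. It was 0.76 (adjusted p = 0.0970) with DESeq2, 0.58 (adjusted p = 0.0792) without Ab library 3 and 1.07 (adjusted p = 0.00290) without Ab library 1, where the gene passed the 2-fold minimum. In the annotation 90.7% of the exon bases of SRXN1 also belong to a readthrough gene on the same strand, so its counts are uncertain.

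ME1 (ENSG00000065833, chr6:83920121-84140770, minus strand), the cytosolic malic enzyme that yields NADPH, rose with both particles. Its level was 39.6, 38.8 and 39.1 CPM in the NR libraries, 40.2, 36.9 and 38.3 CPM in SP and 21.4, 22.7 and 24.6 CPM in Ab, with a wide gap between particle and antibody libraries. The log2 fold change was 0.78 (SE 0.072, adjusted p = 1.17e-10) in NR and 0.75 (SE 0.074, adjusted p = 4.77e-10) in SP, or 1.72-fold and 1.69-fold. Counted by libraries that did not overlap, 6 core genes were above and 2 below Ab in NR, beside 37.1% and 37.5% of all genes tested. In SP 5 were above and 1 below, beside 37.4% and 37.8%.

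**Figure D2:**
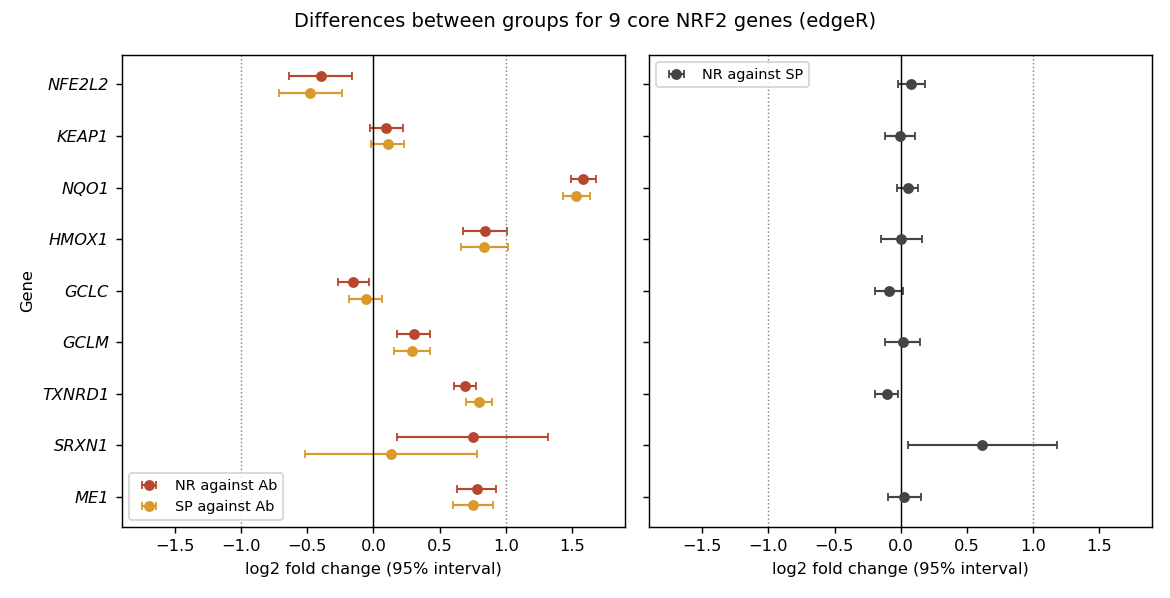
log2 fold change of each core gene with its 95% interval from edgeR, for NR against Ab and SP against Ab in the left panel and NR against SP in the right panel. Dotted lines mark 2-fold. NQO1 is the single gene whose interval lies past 2-fold in the left panel, and every estimate in the right panel lies within 2-fold.

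Nanorods and nanospheres were compared at the same antibody dose and time over the 9 genes. They carry the same linker and antibody and differ in the shape, size and supplier of the gold. The labels match the dose of antibody and not the amount of gold. None of the 9 passed the adjusted p in edgeR, where 0.443% of 14903 genes tested did so and 0.0201% were called. None passed in DESeq2 either, where 144 of 30647 genes did. At an unadjusted p under 0.05 there were 2 of the 9, TXNRD1 and SRXN1, beside 12.9% of all genes. NQO1 differed by a log2 fold change of 0.053 (95% interval -0.026 to 0.13, adjusted p = 0.601). The corresponding value was 0.0056 for HMOX1 (-0.15 to 0.16, adjusted p = 0.981), 0.016 for GCLM (-0.12 to 0.15, adjusted p = 0.946) and 0.028 for ME1 (-0.095 to 0.15, adjusted p = 0.893). The intervals of these 4 genes reached at most 0.16 from 0 on the log2 scale.

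The other 5 genes gave the following. NFE2L2 differed by 0.081 (-0.019 to 0.18, adjusted p = 0.503) and KEAP1 by -0.0067 (-0.12 to 0.11, adjusted p = 0.971). GCLC was lower in every NR library than in every SP library, with a difference of -0.091 (-0.20 to 0.017, adjusted p = 0.483). TXNRD1 was likewise below in every NR library, with -0.10 (-0.19 to -0.017, adjusted p = 0.279). SRXN1 was higher in every NR library, by 0.62, with the widest interval of the set (0.053 to 1.18, adjusted p = 0.333). Such a lack of overlap was common, as 1340 of all 14903 genes tested lay above in every NR library and 1317 below. SRXN1 and GCLC passed against Ab in NR and not in SP, but the difference between the particles did not pass for either, so the particles are not shown to differ in them.

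Levels of different genes were compared per length, as CPM per kilobase of exon. TXNRD1 and NQO1 stood far above the others in each group. In NR they were at 142 ± 2.7 and 80.6 ± 1.2 (SD, n = 3), followed by KEAP1 at 14.1 ± 0.53, HMOX1 at 12.9 ± 0.56, GCLM at 12.6 ± 0.82 and ME1 at 11.7 ± 0.12. NFE2L2 came next at 7.16 ± 0.17, GCLC at 6.58 ± 0.16 and SRXN1 at 0.795 ± 0.11. HMOX1 and GCLM, and GCLM and ME1, lay within the sum of their SDs. In SP the order differed only in that GCLC, at 7.00 ± 0.15, stood above NFE2L2, at 6.77 ± 0.41, and these neighbours, as well as those from KEAP1 to ME1, lay within the sum of their SDs. In Ab TXNRD1 was at 87.9 ± 1.2 and NQO1 at 26.9 ± 0.46, and KEAP1 followed at 13.2 ± 0.43. GCLM at 10.2 ± 0.45 and NFE2L2 at 9.46 ± 1.3 were not separated there, nor were GCLC at 7.33 ± 0.30, HMOX1 at 7.24 ± 0.58 and ME1 at 6.86 ± 0.48. SRXN1 was lowest at 0.473 ± 0.18. With coding length in place of exon length, TXNRD1, NQO1 and SRXN1 kept these places in every group, and GCLM and NFE2L2 followed NQO1. By that length NQO1 was not far above the rest in Ab, at 78.7 ± 1.3 against 67.3 ± 2.95 for GCLM. KEAP1 then ranked 7 in NR and SP and 6 in Ab.

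Close relatives of the core genes that serve the same kind of reaction offered a comparison within the same libraries. All 6 passed the adjusted p in both comparisons, 3 upward and 3 downward, where 36.4% of all genes rose and 36.4% fell in NR and 36.4% and 36.6% in SP. NQO2, a quinone reductase that does not use NADPH, was at 88.5, 84.8 and 87.9 CPM in the NR libraries, 84.2, 82.9 and 85.3 CPM in SP and 105, 97.7 and 98.1 CPM in Ab, with a log2 fold change of -0.20 in NR and -0.24 in SP. The ratio of NQO1 to NQO2 counts was 2.75 ± 0.10 in NR and 2.74 ± 0.083 in SP, against 0.800 ± 0.039 in Ab (SD, n = 3). NQO2 had more counts than NQO1 in all 3 Ab libraries and fewer in all 6 particle libraries. TXNRD2, the mitochondrial thioredoxin reductase, was at 94.3, 95.9 and 97.9 CPM in the NR libraries, 96.5, 91.4 and 92.02 CPM in SP and 146, 132 and 132 CPM in Ab. It changed by -0.51 and -0.54, and the ratio of TXNRD1 to TXNRD2 counts was 9.89 ± 0.10, 10.9 ± 0.48 and 4.33 ± 0.29. TXNRD3, another thioredoxin reductase, rose from 7.12, 7.28 and 7.55 CPM in Ab to 12.7, 14.5 and 14.5 CPM in NR and 15.8, 14.99 and 13.5 CPM in SP. Its log2 fold change was 0.92 in NR and 1.02 in SP, where it was called. The ratio of TXNRD1 to TXNRD3 counts was 68.5 ± 4.0 in NR, 69.2 ± 4.5 in SP and 80.6 ± 2.4 in Ab, lower in every particle library than in every Ab library.

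HMOX2, the constitutive heme oxygenase, rose by 0.42 and 0.30, less than HMOX1. The ratio of HMOX1 to HMOX2 counts was 0.539 ± 0.021 in NR, 0.584 ± 0.072 in SP and 0.403 ± 0.0037 in Ab. Of the mitochondrial malic enzymes, ME2 rose by 0.17 and 0.20 and ME3 fell, with values of -0.56 and -0.53. ME1 to ME2 stood at 0.699 ± 0.033, 0.671 ± 0.017 and 0.456 ± 0.039, and ME1 to ME3 at 1.18 ± 0.12, 1.11 ± 0.032 and 0.458 ± 0.023. In 5 of these 6 pairs the ratio was higher in every particle library than in every Ab library, and with TXNRD3 it was lower. No test was run on the ratios, and no other gene pairs were compared. Among all single genes tested, 37.1% lay above Ab and 37.5% below it without overlap in NR. In SP these shares were 37.4% and 37.8%, so a separation of ratios is not particular to these pairs.

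**Figure D3:**
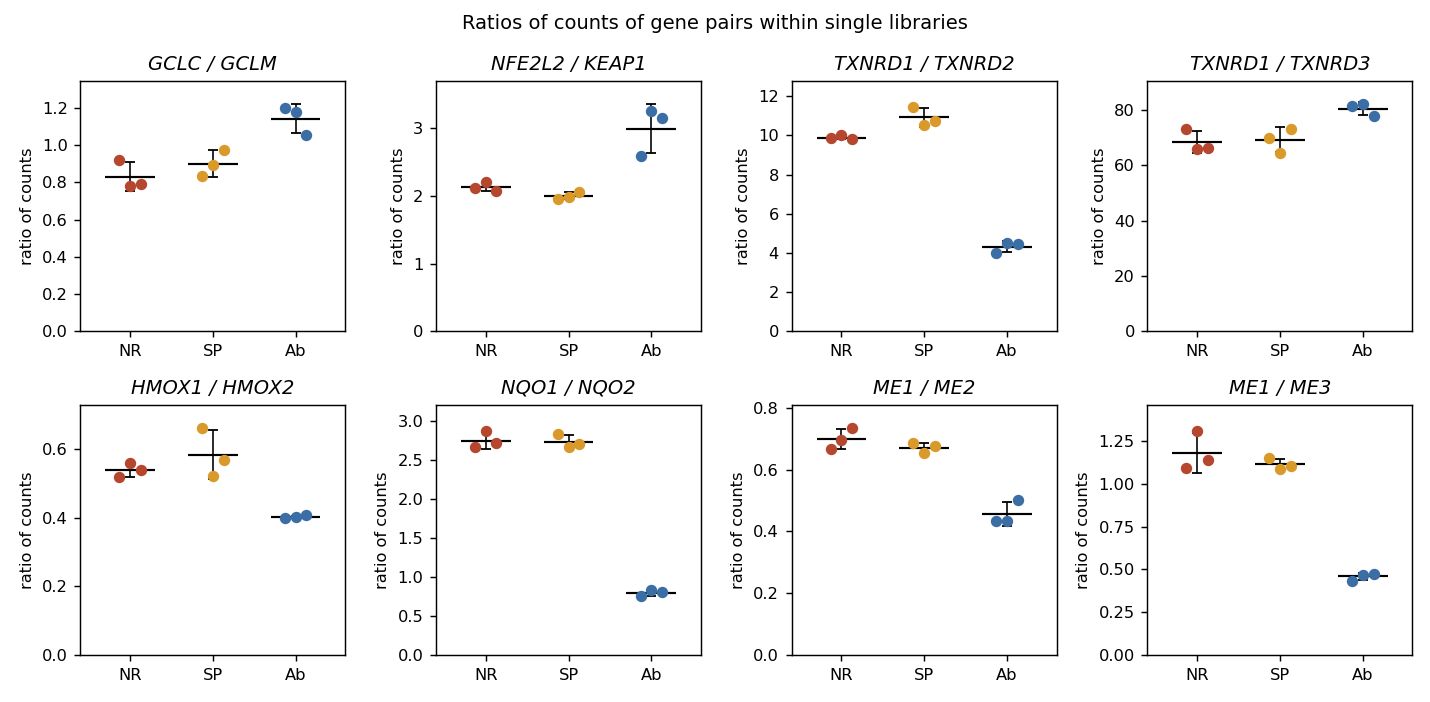
Ratio of the counts of 2 genes within each library, for GCLC to GCLM, NFE2L2 to KEAP1 and 4 core genes to their 6 close relatives. Points are libraries, bars are means and whiskers SD (n = 3), on linear axes from 0. The particle and Ab libraries do not overlap in any of the 8 ratios, and no other gene pairs were compared. NQO1 to NQO2 changes from 0.800 in Ab to 2.75 in NR, and TXNRD1 to TXNRD3 is higher in Ab.

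The surrounding pathway was followed in 6 lists with 63 genes, of which 60 had enough counts for a test. GPX2, ABCB6 and CES1 did not. In NR 35 of the 60 rose and 23 fell, 15 and 9 of them by at least 2-fold, with 0.47 as the median log2 fold change. In NR as a whole, 36.4% of the genes tested rose and 36.4% fell, 12.4% and 10.3% by at least 2-fold. In SP 35 rose and 22 fell, 16 and 9 by at least 2-fold, with a median of 0.55, beside 36.4% and 36.6% of all genes, 12.6% and 10.6% by at least 2-fold. No gene of these lists rose in one comparison and fell in the other. The lists differed in direction, and up to 3 genes of each are described here, those with the smallest adjusted p over both comparisons.

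Most partners and regulators of NRF2 were lower. Of 14 genes, 2 rose and 12 fell in NR and 2 rose and 11 fell in SP, with medians of -0.57 and -0.60, where 36.4% and 36.6% of all genes fell. The genes that rose were RBX1, the RING subunit of the CUL3 ligase, at 0.63 and 0.71, and DPP3, a peptidase that binds KEAP1, at 0.46 and 0.54. GSK3B, a kinase that promotes the loss of NRF2, fell in NR (-0.15) and did not pass in SP (-0.090, adjusted p = 0.0953). MAFF, a small MAF protein, was at 30.8, 28.5 and 31.4 CPM in the NR libraries, 28.96, 30.3 and 33.96 CPM in SP and 132, 123 and 129 CPM in Ab, 4.21-fold and 4.10-fold lower with the particles. MAFG had log2 fold changes of -1.21 and -1.22. NFE2L1, a relative of NRF2 that drives proteasome genes, was at 206, 214 and 218 CPM in the NR libraries, 227, 230.0 and 217 CPM in SP and 589, 552 and 568 CPM in Ab, with log2 fold changes of -1.42 and -1.33. MAFK and BACH1, a repressor that competes with NRF2 for MAF partners, are named after their values were seen, as are RBX1, DPP3 and GSK3B. MAFK changed by -1.14 and -1.27 and BACH1 by -0.81 and -0.81. The RNA of all 3 small MAF genes and of BACH1 was thus lower in NR and SP than in Ab, and all these changes passed the adjusted p. Of the exon bases of MAFK 18.1% and of BACH1 17.9% are shared with other genes.

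The list for glutathione and cystine split evenly. Of 9 genes tested, 4 rose and 4 fell in both comparisons, with medians of -0.056 in NR and 0.054 in SP. Of all genes 36.4% rose and 36.4% fell in NR and 36.4% and 36.6% in SP, so the split of this list was near that of all genes. CHAC1, which degrades glutathione and is a known target of the stress factor ATF4, was at 8.35, 9.39 and 8.48 CPM in the NR libraries, 11.6, 9.09 and 9.42 CPM in SP and 188, 174 and 172 CPM in Ab. It was 20.5-fold lower in NR and 17.6-fold lower in SP, the largest change in the 6 lists. SLC3A2, the heavy chain that pairs with several amino acid transporters, had log2 fold changes of -1.21 and -1.12. SLC7A11, the cystine carrier that SLC3A2 pairs with and a textbook NRF2 target, is named after its values were seen. It was at 38.1, 38.1 and 34.7 CPM in the NR libraries, 53.9, 44.7 and 39.8 CPM in SP and 91.4, 105 and 102 CPM in Ab and changed by -1.43 and -1.10, opposite to NQO1. GSR, which reduces oxidized glutathione with NADPH, rose from 23.5, 22.2 and 24.3 CPM in Ab to 62.2, 59.4 and 62.8 CPM in NR and 58.9, 56.7 and 58.2 CPM in SP.

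In the thioredoxin system 6 of 8 genes rose and 2 fell in both comparisons, with medians of 0.77 and 0.74, where 36.4% of all genes rose and 36.4% fell in NR and 36.4% and 36.6% in SP. The pair that fell was SESN2, a stress-induced sestrin, and TXNIP, the inhibitor of thioredoxin. SESN2 was at 21.8, 21.4 and 19.8 CPM in the NR libraries, 24.5, 23.7 and 22.3 CPM in SP and 286, 259 and 268 CPM in Ab, 12.8-fold and 11.5-fold lower. TXNIP changed by -1.91 and -1.99 and is named, after its values were seen, because it completes the pair. PRDX6, a peroxiredoxin, rose by 1.04 and 1.01, and TXN, thioredoxin itself, by 0.83 and 0.79. TXN went from 166, 173 and 178 CPM in Ab to 318, 299 and 302 CPM in NR.

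Genes that supply NADPH, which the reductases above consume, rose in 5 of 8 cases and fell in 2 in both comparisons, with medians of 0.82 and 0.81. The shares of all genes were 36.4% and 36.4% in NR and 36.4% and 36.6% in SP. TKT, transketolase of the pentose phosphate pathway, was at 1269.7, 1253 and 1268 CPM in the NR libraries, 1241, 1205 and 1240.1 CPM in SP and 618, 579.7 and 582 CPM in Ab, with no overlap between particle and antibody libraries. It rose by a log2 fold change of 1.09 and 1.06, and NNT, which makes NADPH in mitochondria, by 1.34 and 1.36. NNT went from 169, 175 and 172 CPM in Ab to 413, 443 and 444 CPM in NR.

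For heme and ferritin, 6 of 7 genes tested rose and 1 fell in both comparisons, with medians of 0.75 and 0.79, beside 36.4% of all genes that rose and 36.4% that fell in NR and 36.4% and 36.6% in SP. BLVRA reduces biliverdin, the product of HMOX1, and BLVRB is a flavin reductase that acts on other isomers of biliverdin. BLVRB went from 35.05, 33.4 and 33.7 CPM in Ab to 104, 107 and 101 CPM in NR and 111, 103 and 101 CPM in SP, 3.07-fold and 3.11-fold higher. BLVRA rose 2.86-fold and 2.76-fold. The ferritin chains went apart, as FTL, the light chain, rose by 0.75 and 0.79 while FTH1, the heavy chain and the gene that fell, named after its values were seen, changed by -0.25 and -0.39. Of the exon bases of FTH1 63.2% are shared with BEST1 on the opposite strand, so its small change, and with it the contrast between the chains, is uncertain.

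Quinone, carbonyl and export genes had medians of 0.89 in NR and 0.81 in SP, with 12 of 14 genes tested rising and 2 falling in both comparisons. Among all genes 36.4% rose and 36.4% fell in NR, and 36.4% and 36.6% in SP. PIR, pirin, a nuclear protein with quercetinase activity, was at 59.5, 59.4 and 54.9 CPM in the NR libraries, 60.3, 56.4 and 57.7 CPM in SP and 8.79, 8.66 and 8.43 CPM in Ab. It rose 6.73-fold and 6.77-fold, the largest rise in the 6 lists. TRIM16L rose by a log2 fold change of 1.37 and 1.29 and EPHX1, the microsomal epoxide hydrolase, by 0.92 and 0.85. The annotation lists TRIM16L as a pseudogene. All of its exon bases are shared with another entry of the same name and strand, which is not among the IDs in the count data. The annotation release used for counting is not given, so its counts remain uncertain. The core letters of the element were found in the promoter windows of 14 of the 47 genes of the 6 lists that had a window, PIR among them, and in 16.1% of all symbols. Between NR and SP none of the 60 genes tested passed the adjusted p in edgeR, and 13 had an unadjusted p under 0.05, beside 12.9% of all genes. In DESeq2 1 passed, FTH1, with a log2 fold change of 0.15 (adjusted p = 0.0307), against 0.15 (adjusted p = 0.103) in edgeR. Among all 30647 genes in the DESeq2 fit, 144 passed.

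**Figure D4:**
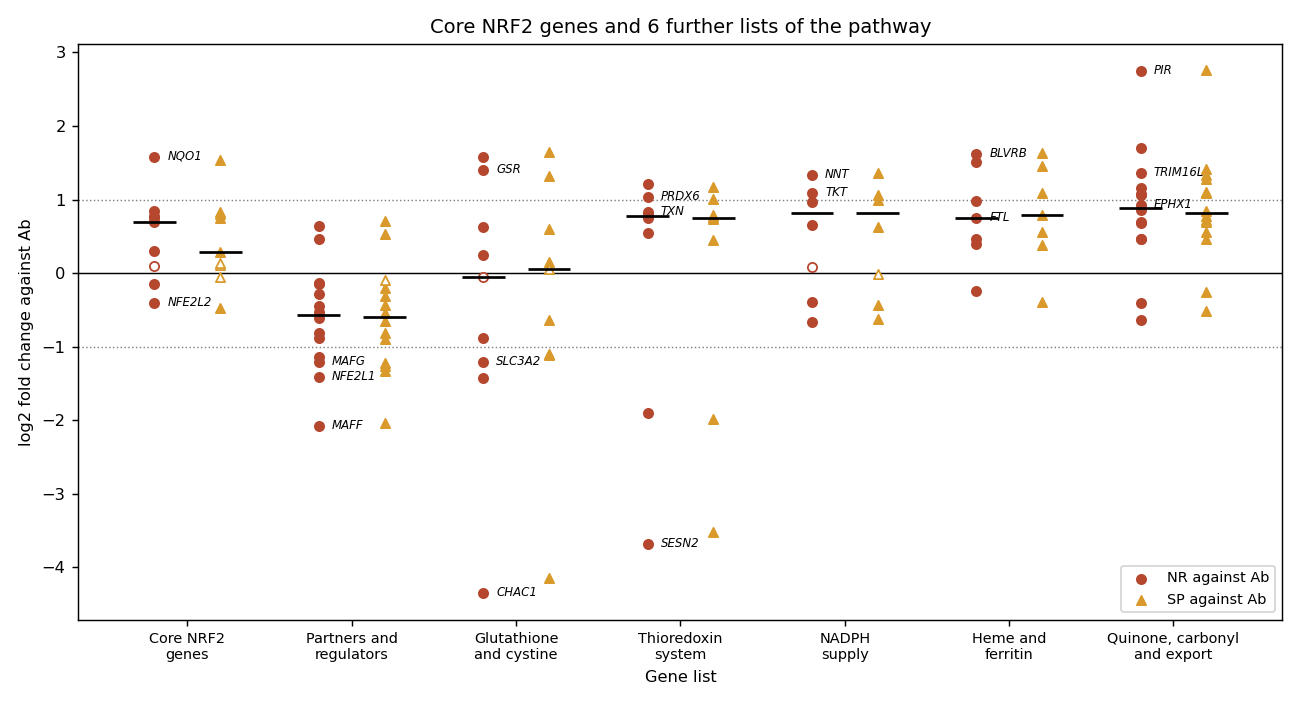
log2 fold change against Ab of the tested genes of the core list and the 6 further lists, with 1 gene of the NADPH list not drawn, NR as circles and SP as triangles. Filled symbols passed an adjusted p of 0.05, open symbols did not, black bars are medians over all tested genes of a list, dotted lines mark 2-fold and names mark genes described in the text. Partners and regulators lie mainly below 0, with medians of -0.57 and -0.60, and the thioredoxin, NADPH, heme and quinone lists mainly above it.

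NQO1 was used to look for genes with a like pattern, by Pearson's r of log2 CPM over the 9 libraries among 9169 protein-coding genes with a mean of at least 10 CPM. The 9 libraries fall into 6 with particles and 3 without, so a high r mainly records the step between them and carries no test. Of the 9169 genes, 731 reached an r of 0.99. The closest were AKR1C3 (0.99942), MTCH2 (0.99927), MCRS1 (0.99924), PI3 (0.99904) and MAGT1 (0.99900). AKR1C3, an aldo-keto reductase, was at 127, 138 and 125 CPM in NR, 126, 117 and 129 CPM in SP and 5.20, 6.05 and 5.47 CPM in Ab, a larger step than that of NQO1. PI3, the elastase inhibitor elafin, had log2 fold changes of 3.66 and 3.49, while MTCH2, MCRS1 and MAGT1 had values of 0.82 to 0.93. Among the core genes the r with NQO1 was 0.989 for ME1, 0.983 for TXNRD1, 0.979 for HMOX1, 0.864 for GCLM and 0.714 for KEAP1. It was -0.717 for GCLC and -0.865 for NFE2L2, and SRXN1 was under the level required.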

How the data were processed

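Per the labels and the study's methods, Trizol RNA of SNU5 cells was made into poly-A libraries. The authors cleaned the reads of adapters and poor sequence, aligned them with HISAT2 2.1.0 and deposited whole read counts per Ensembl gene, not scaled between libraries. The reporting summary gives hg19, and the submitters' processing notes list a mouse build as well as DESeq2 1.16.1. The counter is named differently in different places, and the annotation release and the use of strand are not given in the sources used here.

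IDs were matched to GENCODE 44 on GRCh37 (59858 of 60880 matched). The 1022 left over took up to 0.115% of a library's counts. Each comparison used the 6 libraries concerned in edgeR 4.0.16 (R 4.3.3): TMM, filterByExpr (minimum count 10, minimum total 15), robust quasi-likelihood test and Benjamini-Hochberg adjustment over all genes tested. Calls needed both an adjusted p up to 0.05 and a 2-fold change. The chi-square per gene between libraries of one group was 1.80 to 6.81, above sampling noise, so no library was treated as a repeat deposit of another. This does not show separate cultures. The steps were tested on simulated data.

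The members and lists were chosen with earlier results of these data known. The values of 1 gene of the NADPH list are not reported here, though it counts in the list's totals. The text names the core genes, their relatives, per list up to 3 genes with the smallest adjusted p ranks and the 5 genes most like the leading core gene. Outside this rule, RBX1, DPP3, GSK3B, MAFK, BACH1, SLC7A11, TXNIP, FTH1 and the marker genes described singly were chosen after their values were seen. Alternatives were DESeq2 1.42.0, RLE and upper-quartile scaling, other filters, glmTreat, a 1.5-fold minimum, all 9 libraries in one fit, a replicate block, no mitochondrial genes, coding length and each library left out. Tables were made in Python 3.11.15 (pandas 2.3.3, numpy 2.4.6) and drawn in matplotlib 3.10.9.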

Additional observations from a re-analysis of the deposited data

How the results depend on the processing

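Of 405 alternative values for single core genes, 393 kept their direction and their side of the call rule (adjusted p and 2-fold), 11 turned sign and 1, SRXN1 in NR against Ab without Ab library 1, became a call. No value that turned sign had passed. They were GCLC in SP against Ab with upper-quartile scaling (0.011), and, with single libraries left out, SRXN1 in SP against Ab (-0.16 to 0.46) and KEAP1 (-0.035 to 0.019), HMOX1 (-0.069 to 0.065) and GCLM (-0.044 to 0.092) in NR against SP. On the adjusted p alone, of 14 alternatives in NR against Ab, NFE2L2 passed in 12, SRXN1 in 10 and GCLC in 9, and KEAP1, which had not passed, did so in 1, with upper-quartile scaling (0.17, adjusted p = 0.0143). In SP against Ab KEAP1 likewise passed in 1. The other core genes stayed on their side of the adjusted p. With a 1.5-fold minimum the core genes called were 5 in place of 1 in NR and 4 in place of 1 in SP, and those of the 6 lists 43 in place of 24 and 42 in place of 25. The lower minimum also let through 6348 of the 15009 genes tested against Ab for NR, counting both directions. For SP the corresponding background was 6385 out of 15068 genes. With single libraries left out, the core genes called in NR were 1 to 2, the second being SRXN1 without Ab library 1. In that fit 3634 of all 15441 genes tested were called. Core genes past the adjusted p ranged from 6 to 8 in NR, with 6 by DESeq2, and from 6 to 7 in SP. By DESeq2 10191 of all 31004 genes in the fit passed in NR. Between NR and SP no core or listed gene was called under any alternative. All genes past the adjusted p numbered 66 of 14903 in edgeR, 144 of 30647 with DESeq2 and 328 of 30650 without a filter. The number was 10 to 188 with single libraries left out. Libraries with the same replicate number did not deviate together over the genes as a whole (r from -0.032 to 0.028). A pairing that affects few genes could not be seen this way. A replicate block left 1 core gene called and 8 and 6 past the adjusted p in NR and SP, 24 and 25 listed genes called, and 51 genes past the adjusted p between NR and SP. Of all 15009 genes tested in NR, 3414 were called and 10630 passed the adjusted p under this block. Of 15068 in SP, 3493 were called and 10970 passed. Depth limits SRXN1, GPX2, ABCB6 and CES1, and intervals cover the spread between these libraries only.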
